A study of Mus musculus with 9 samples.

Results

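Oxidative phosphorylation in the normal colonic mucosa of DMH-treated mice was followed through 33 genes encoded in the nucleus. They were taken as a fixed list of respiratory chain symbols: 12 subunits of complex I, 4 of complex II, 4 of complex III, cytochrome c, 6 subunits of complex IV, 5 of complex V, and Ndufa4, long listed under complex I and now placed in complex IV. All 33 were found through the RefSeq accession of their probes, among 15342 named genes and 21968 features that passed the filter. Their 42 probes were well above background on all 9 arrays, so no member was lost to the filter on dim probes.

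Total RNA was hybridised to single-colour Agilent arrays. The mice were of ICR stock, which is not inbred, and all 3 groups had weekly subcutaneous injections of 20 mg/kg 1,2-dimethylhydrazine (DMH), a colon carcinogen, over 20 weeks. The group called butyrate with tumors (3 arrays) had butyrate at 1.5% in its drinking water; this short fatty acid is made by gut bacteria and burned by colonic epithelial cells. Butyrate without tumors (3 arrays) had the same water. The DMH group (3 arrays) had the carcinogen with no butyrate, so no group was untreated. Group names were taken from sample titles, which descriptions and source names repeat. A further label field gives the opposite tumor status for all 6 butyrate samples. If that field is right, each difference between both butyrate groups turns its sign, and each result of a butyrate group against DMH belongs to the other butyrate group. The labels give neither the age of the mice nor whether samples are separate animals, so p-values rest on the spread between samples, part of which may be technical.

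Signal at an array's 75th percentile, the level that all values below are set against, lay between 188 and 880. It was 188 to 444 on slide 1, which carried array 1 with tumors and all 3 arrays without tumors, 832 and 880 on slide 2 (arrays 2 and 3 with tumors), and 740 to 822 on slides 3 and 4 (DMH). The DMH arrays were also scanned on another day, so in any comparison with DMH the treatment and the slide cannot be told apart. Their values spread least, with a median SD per member of 0.256 with tumors, 0.162 without tumors and 0.073 in DMH (log2, n = 3 each). In the fit of 3 groups the spread of each gene was shared over all groups. The comparison between the butyrate groups thus also drew on the spread of the DMH arrays. Epithelial genes such as Epcam, Krt8 and Vil1 were measured in all groups (10 of 10 markers well above background on all 9 arrays), and so were smooth muscle genes such as Myh11, Acta2 and Des (9 of 9), which are not epithelial. A value in such bulk RNA does not tell fewer cells of a type from less RNA per cell.

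Complexes I, III and IV pass electrons from NADH or ubiquinol to oxygen and pump protons out of the mitochondrial matrix. Complex II feeds electrons from succinate into the same chain without pumping and is also an enzyme of the citrate cycle, and complex V uses the proton gradient to make ATP. Each complex is assembled from many subunits, some of them encoded by mitochondrial DNA. Colonic epithelial cells draw much of their energy from mitochondrial oxidation of butyrate that gut bacteria release, and the chain carries the electrons of that oxidation.

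Against DMH, the log2 change was below 0 for 32 of 33 members with tumors and for 21 of 33 without tumors, beside 44.3% and 46.3% of all features, and the median was -0.43 with tumors and -0.25 without, where the medians over all 21968 features were 0.08 and 0.08. With tumors the changes ran from -1.23 to 0.05, and 1 member was called lower and none higher at a Benjamini-Hochberg adjusted p under 0.05 over all features, where 2.26% of all features were called lower and 3.44% higher. A total of 16 members had an unadjusted p under 0.05 in that comparison, and for 25 all arrays with tumors lay below all DMH arrays (19.5% of all features), while for 0 they lay above them (23.0%). Without tumors the changes ran from -1.99 to 0.67, and 11 members were called lower and 2 higher, against 13.8% lower and 16.6% higher over all features. With slide as a random block (estimated correlation 0.442) 1 of these 13 calls was made, that of Atp5b, where 2.33% of all features were called lower and 2.25% higher, and 11 members had an unadjusted p under 0.05. With quantile scaling the calls were nearly equal in number each way. It gave 8 members called lower and 7 higher (12.6% and 17.2% of all features), and with normexp background correction before it 9 lower and 8 higher (12.7% and 16.4%). The authors' values gave 9 of 32 members lower and 2 higher (10.8% and 22.1% of all features). The groups did not overlap for 15 members that were lower (27.2% of all features) and 6 that were higher (32.8%). Leaving out each array in turn gave between 5 and 14 calls without tumors against DMH, with the calls of Atp5b, Cox6b1, Ndufs3, Ndufs4 and Ndufv2 made in 9 of 9 such fits, and between 0 and 3 with tumors. All features moved too, with 12.9% to 45.3% called without tumors and 0.0182% to 8.17% with tumors in the same fits. All 5 members called when the 6 butyrate arrays were set against the 3 DMH arrays were lower (Ndufs4, Ndufa4, Cox6b1, Atp5o and Atp5j), where 3.36% of all features were called lower and 5.85% higher. None of these 5 was called when any single DMH array was left out (9 to 10 members with an unadjusted p under 0.05). In those fits 0.0319% to 0.956% of all features were called. With slide as a random block none of the 5 was called (11 members with an unadjusted p under 0.05), where 0.0774% of all features were called. Between the butyrate groups 4 members were called lower and 1 higher with tumors, beside 6.55% and 6.98% of all features. With the DMH arrays left out of that fit none of these 5 was called (7 members with an unadjusted p under 0.05), and neither was any other feature. Both comparisons with DMH share the same 3 DMH arrays.

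**Figure D1:**
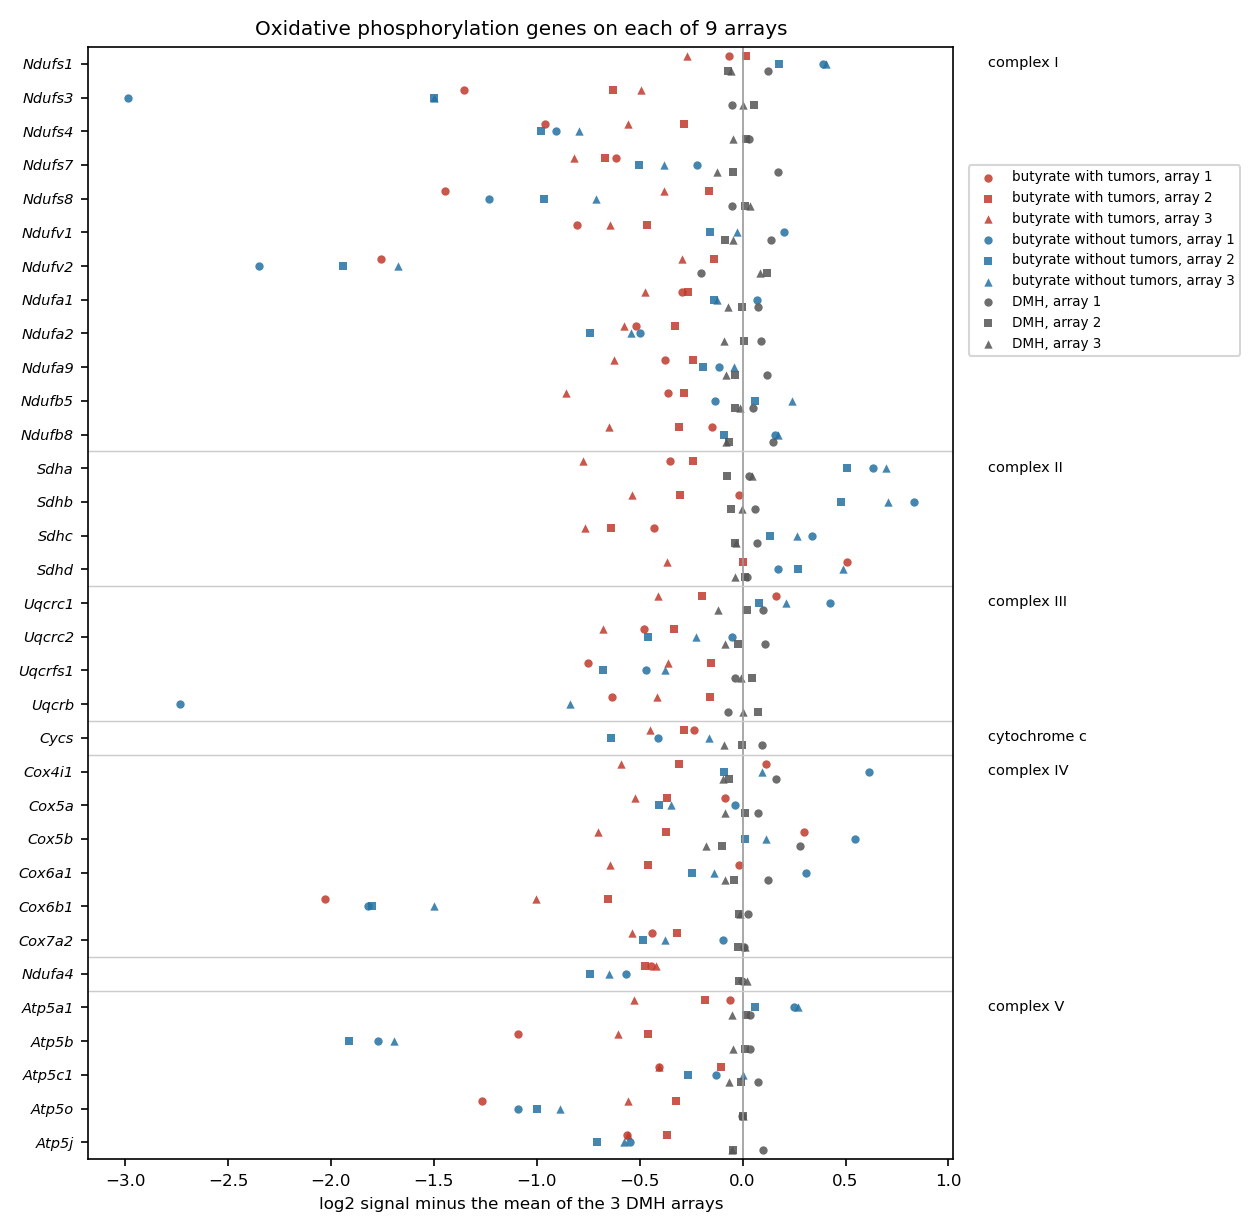
Log2 signal of each of the 33 members on each of 9 arrays, relative to the mean of the 3 DMH arrays; rows are genes grouped by complex, colours are groups and symbols are array numbers. All points of Ndufs3, Ndufv2, Cox6b1 and Atp5b without tumors lie between -2.99 and -1.50, and those of Sdha and Sdhb without tumors lie to the right of all DMH points.

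**Figure D2:**
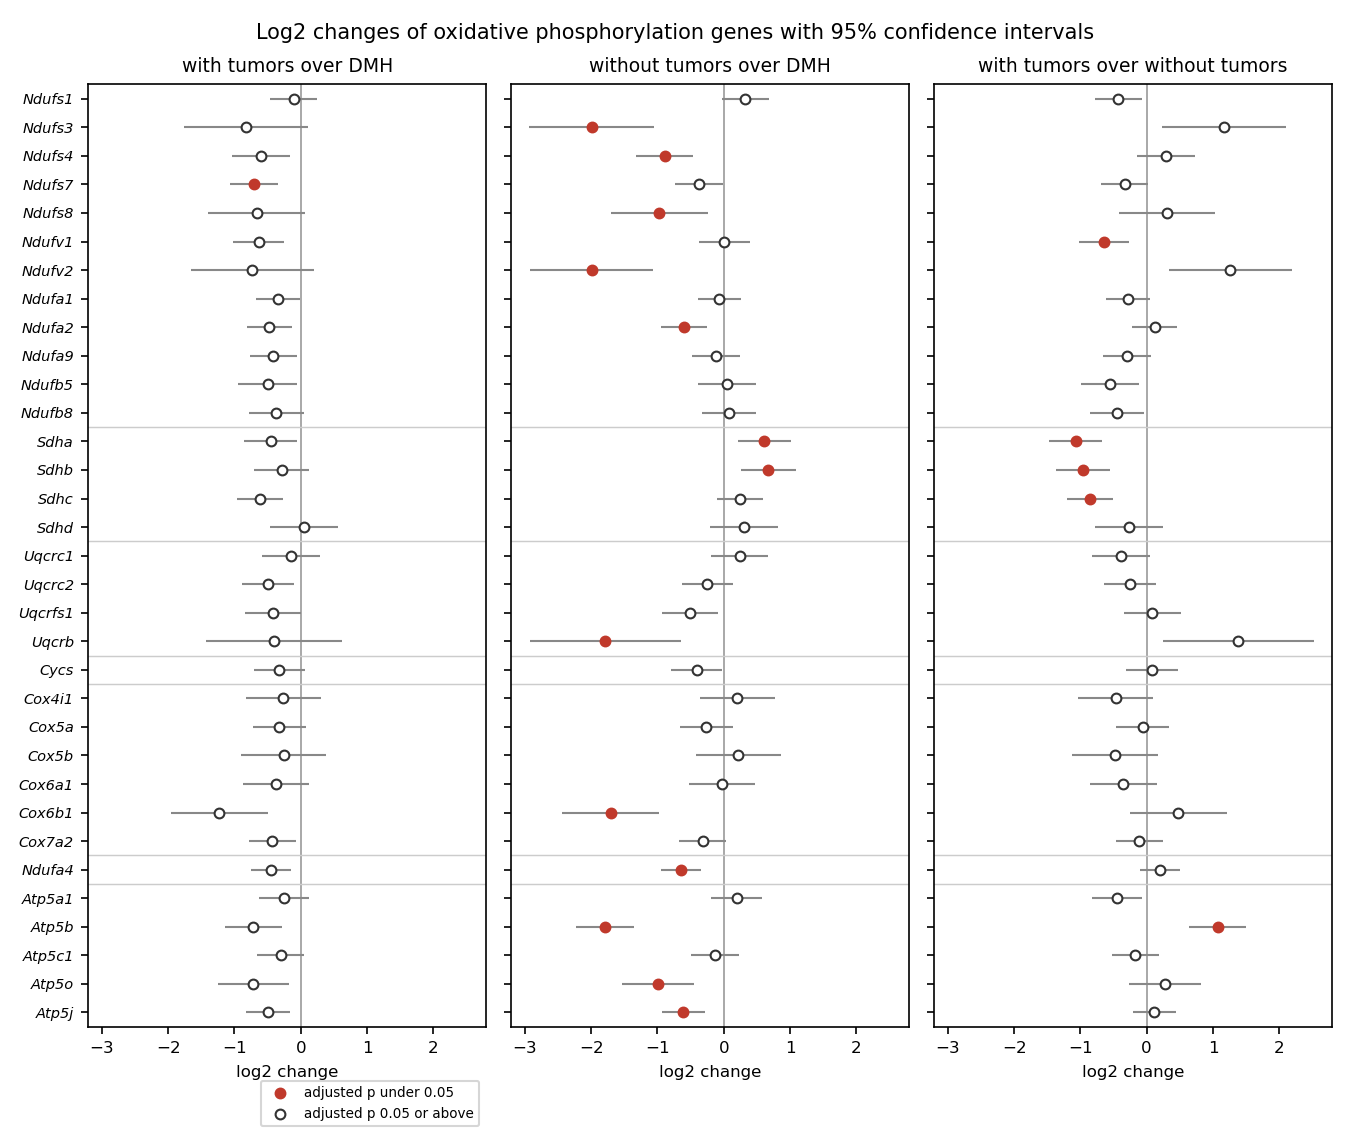
Log2 change (x axis) of each member in 3 comparisons, with 95% confidence intervals from the limma fit as horizontal lines; filled points have an adjusted p under 0.05. With tumors over DMH 1 point is filled, without tumors over DMH 13, and with tumors over without tumors 5.

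The median of the 4 subunits of complex II, taken relative to the DMH mean, was -0.18, -0.27 and -0.65 on the arrays with tumors, 0.49, 0.37 and 0.59 on the arrays without tumors, and 0.05, -0.05 and -0.02 on the DMH arrays (log2). The median of each other complex lay below 0 on all 3 arrays with tumors and on the arrays without tumors, except for complex IV on array 1 without tumors at 0.14.

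**Figure D3:**
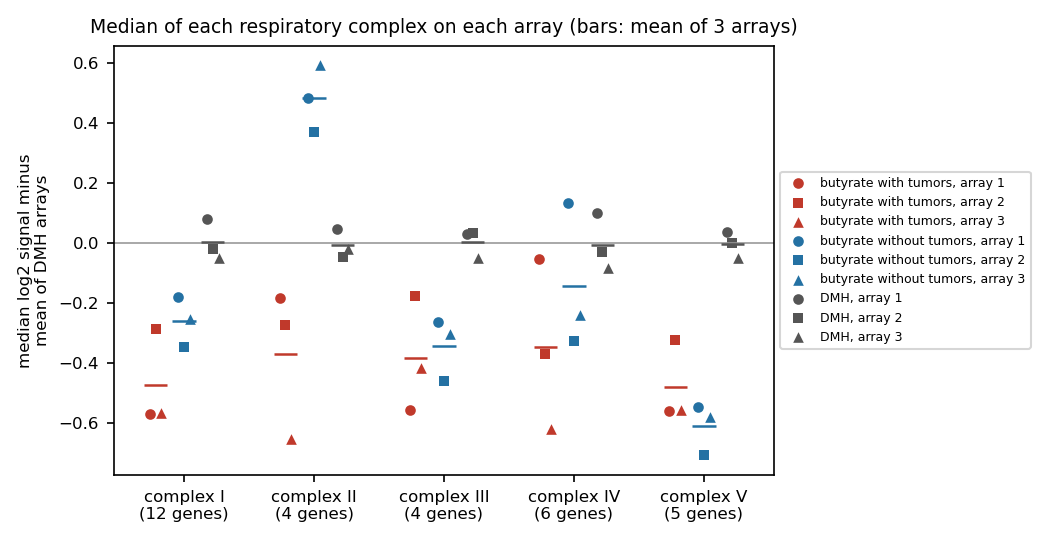
Median log2 signal of the subunits of each complex on each array, relative to the mean of the DMH arrays; symbols are arrays and bars are means of 3 arrays. Complex II lies above 0 on all 3 arrays without tumors (0.37 to 0.59) and below 0 on all 3 with tumors.

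Sdha encodes the flavoprotein that oxidises succinate. Its log2 signal over the 75th percentile was 2.51, 2.63 and 2.09 with tumors, 3.50, 3.37 and 3.57 without tumors, and 2.90, 2.79 and 2.91 in DMH. All arrays without tumors were above all others, and all arrays with tumors below. The log2 change was -1.07 ± 0.18 with tumors against without tumors (SE, adjusted p = 0.0148), 0.61 ± 0.18 without tumors against DMH (adjusted p = 0.0313) and -0.46 ± 0.18 with tumors against DMH (adjusted p = 0.129). Sdhb, the iron-sulfur subunit that takes the electrons from Sdha, had 3.21, 2.92 and 2.69 with tumors, 4.06, 3.70 and 3.93 without tumors, and 3.29, 3.17 and 3.22 in DMH. Array 1 with tumors lay among the DMH arrays, and the arrays without tumors did not overlap with any other. Sdhb changed by -0.96 ± 0.18 between the butyrate groups (adjusted p = 0.0195) and by 0.67 ± 0.18 without tumors against DMH (adjusted p = 0.0254). The higher levels of Sdha and Sdhb without tumors against DMH were called in 3 and 4 of the 9 fits that leave out 1 array and in none of those without a DMH array, and their lower levels with tumors than without in 8 and 7 of 9. With no scaling between arrays, where the median of all features without tumors against DMH was -1.0, Sdha and Sdhb were at -0.467 and -0.408. Sdhc, a membrane anchor, was at 3.67, 3.45 and 3.33 with tumors, 4.43, 4.23 and 4.36 without tumors, and 4.16, 4.06 and 4.06 in DMH. Its change between the butyrate groups was -0.86 ± 0.15 (adjusted p = 0.0174), while that without tumors against DMH (0.24, adjusted p = 0.243) did not pass. The other anchor, Sdhd, went another way on array 1 with tumors. It stood at 5.69 on that array and at 5.18 and 4.81 on the other arrays with tumors, at 5.35, 5.45 and 5.67 without tumors, and at 5.20, 5.19 and 5.14 in DMH. Sdhd was called in no comparison.

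The contrast of Sdha, Sdhb and Sdhc could be read within slide 1, where array 1 with tumors lay below all 3 arrays without tumors for each of them, with differences from their mean of -0.97, -0.69 and -0.67 on the log2 scale. With the arrays of slide 1 alone (1 against 3, the lone array taken to vary like the others), the adjusted p-values were 0.144, 0.258 and 0.233, and no feature on the array was called.

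A second, dimmer probe of Sdha gave another result. It read 0.58, 1.40 and 1.22 with tumors, 0.84, 0.85 and 1.02 without tumors, and 2.01, 2.10 and 2.12 in DMH, so that both butyrate groups were below DMH. In a fit of all probes its log2 change was -1.18 without tumors (adjusted p = 0.00774) and -1.01 with tumors (adjusted p = 0.0425) against DMH, and 0.16 between the butyrate groups (adjusted p = 0.619). The higher level of Sdha without tumors thus rested on the brighter of 2 probes. Sdhb, Sdhc and Sdhd had 1 probe each.

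Steep falls without tumors were found in a few subunits of complexes I, III, IV and V. Atp5b, the catalytic beta subunit of ATP synthase, had the smallest adjusted p of all members in any comparison. It stood at 5.93, 6.57 and 6.42 with tumors, 5.25, 5.11 and 5.33 without tumors, and 7.06, 7.04 and 6.98 in DMH. The 3 groups did not overlap, and the arrays with tumors lay in between. Atp5b fell by 1.79 ± 0.19 on the log2 scale without tumors against DMH (adjusted p = 0.00141) and was 1.07 ± 0.19 higher with tumors than without (adjusted p = 0.0171), while the change with tumors against DMH (-0.72, adjusted p = 0.0587) did not pass. Its call without tumors was also made with slide as a random block (adjusted p = 0.0169), where no other member was called.

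Cox6b1, a complex IV subunit on the side of the intermembrane space, read 2.20, 3.57 and 3.22 with tumors, 2.40, 2.43 and 2.73 without tumors, and 4.25, 4.21 and 4.22 in DMH. All 6 butyrate arrays were below DMH, and array 1 with tumors was the lowest of all. Cox6b1 fell by 1.71 ± 0.32 without tumors (adjusted p = 0.00779) and by 1.47 ± 0.30 over all 6 butyrate arrays (adjusted p = 0.0295), both on the log2 scale against DMH. The change with tumors was -1.23 ± 0.32 (adjusted p = 0.0571).

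In complex I the steepest falls were those of Ndufs3, a core subunit of the arm that leads electrons to ubiquinone, and Ndufv2, an iron-sulfur subunit of the NADH-oxidising module. Ndufs3 had 3.08, 3.81 and 3.95 with tumors, 1.45, 2.94 and 2.94 without tumors, and 4.39, 4.49 and 4.44 in DMH. Array 1 without tumors lay far below the other 2 of its group. Ndufs3 fell by 1.99 ± 0.41 without tumors (adjusted p = 0.0104). Ndufv2 had 0.99, 2.61 and 2.45 with tumors, 0.39, 0.80 and 1.07 without tumors, and 2.54, 2.86 and 2.83 in DMH. Here the 4 arrays of slide 1 formed the low set, and arrays 2 and 3 with tumors stood near DMH. Ndufv2 fell by 1.99 ± 0.41 without tumors (adjusted p = 0.0103), and with tumors its change was -0.73 ± 0.41 (adjusted p = 0.258).

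Uqcrb, a small ubiquinol-binding subunit of complex III, read 4.03, 4.50 and 4.24 with tumors, 1.93 and 3.82 on arrays 1 and 3 without tumors, and 4.59, 4.73 and 4.66 in DMH. The spot on array 2 without tumors was marked as an outlier by the scanner software and was left out. Uqcrb fell by 1.79 ± 0.49 without tumors (2 arrays against 3, adjusted p = 0.0308). Without array 1 the change was -0.84 and was not called, nor was it called when any single DMH array was left out.

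The promoters of the members at both ends of this range are printed as background to these values. They are the 250 bases before the annotated start, 5′ to 3′ on the strand of the gene, from RefSeq on GRCm38.p6, and are shown because Sdha and Sdhb were the members called higher and Atp5b and Cox6b1 had the smallest p-values of those called lower without tumors. Capitals mark matches on either strand to CGCANGCG, the core of the site of nuclear respiratory factor 1 with 1 base left open, to CCGGAAG, the ETS-type site bound by the factor that contains Gabpa, and to AAGATGGC, a site of YY1. Each of these factors is known to bind promoters of respiratory chain genes.
Sdha, chr13:74350241-74350490, minus strand: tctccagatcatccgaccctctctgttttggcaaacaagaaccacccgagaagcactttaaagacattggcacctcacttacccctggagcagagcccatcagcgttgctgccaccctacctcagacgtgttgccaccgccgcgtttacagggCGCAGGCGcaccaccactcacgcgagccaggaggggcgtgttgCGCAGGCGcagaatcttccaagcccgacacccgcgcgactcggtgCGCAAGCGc
Sdhb, chr4:140961021-140961270, plus strand: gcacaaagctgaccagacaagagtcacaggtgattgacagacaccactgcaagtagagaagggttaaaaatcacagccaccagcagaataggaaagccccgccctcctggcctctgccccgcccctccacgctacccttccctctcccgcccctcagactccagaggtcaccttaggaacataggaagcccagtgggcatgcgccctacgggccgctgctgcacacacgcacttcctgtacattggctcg
Atp5b, chr10:128083057-128083306, plus strand: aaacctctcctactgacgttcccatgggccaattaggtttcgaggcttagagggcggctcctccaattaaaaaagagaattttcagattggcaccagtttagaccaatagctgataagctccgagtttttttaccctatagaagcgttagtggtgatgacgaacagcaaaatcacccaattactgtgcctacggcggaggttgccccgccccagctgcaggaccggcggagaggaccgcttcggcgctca
Cox6b1, chr7:30626115-30626364, minus strand: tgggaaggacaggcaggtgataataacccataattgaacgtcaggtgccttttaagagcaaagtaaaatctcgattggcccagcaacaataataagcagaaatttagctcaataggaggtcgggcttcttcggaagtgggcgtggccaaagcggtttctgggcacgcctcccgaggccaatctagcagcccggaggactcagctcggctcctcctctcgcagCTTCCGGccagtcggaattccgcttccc
The window of Sdha held 3 matches to the first motif, that of Cox6b1 held 1 ETS-type match, and none of the 3 motifs was found in the windows of Sdhb and Atp5b. Promoters were on file for 26 of the 33 members. The first motif was found in 6 of 26 (23.1%, against 6.76% of all 32851 promoters in the table), in Sdha, Sdhd, Cycs, Cox6a1, Atp5c1 and Atp5j. The ETS-type motif was found in 5 of 26 (19.2%, against 6.91%) and the YY1 motif in 1 of 26 (3.85%, against 1.56%). The median GC content was 59.0% for promoters of members and 52.4% for all promoters. A match is a description of the letters, and binding was not measured here.

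The remaining complex I calls were smaller. Ndufs4, an accessory subunit of the NADH-oxidising side, was at 3.07, 3.75 and 3.48 with tumors, 3.13, 3.05 and 3.24 without tumors, and 4.06, 4.05 and 3.99 in DMH. All butyrate arrays were below DMH, and the fall was 0.89 ± 0.19 without tumors (adjusted p = 0.0117) and 0.75 ± 0.19 over all 6 arrays (adjusted p = 0.0448). Ndufs8, an iron-sulfur subunit, had 0.83, 2.11 and 1.89 with tumors, 1.04, 1.31 and 1.56 without tumors, and 2.22, 2.29 and 2.31 in DMH. As with Ndufv2, the 4 arrays of slide 1 were the low ones, and its fall of 0.97 ± 0.32 without tumors was just past the threshold (adjusted p = 0.0496). Ndufa2, a small accessory subunit, read 5.24, 5.43 and 5.18 with tumors, 5.25, 5.01 and 5.21 without tumors, and 5.84, 5.76 and 5.66 in DMH, a change of -0.60 ± 0.15 without tumors (adjusted p = 0.0207) and of -0.47 ± 0.15 with tumors (adjusted p = 0.0859).

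Both other called subunits of complex I were lowest with tumors. Ndufs7, which carries the iron-sulfur cluster next to ubiquinone, had 5.03, 4.98 and 4.83 with tumors, 5.43, 5.15 and 5.27 without tumors, and 5.82, 5.60 and 5.52 in DMH. It was the member called with tumors against DMH, with a change of -0.70 ± 0.16 (adjusted p = 0.0437), a call made in 2 of the 9 fits that leave out 1 array. The 3 groups did not overlap, and the change without tumors was -0.37 ± 0.16 (adjusted p = 0.104). Ndufv1, which binds NADH and the flavin that takes its electrons, had 3.66, 4.0 and 3.82 with tumors, 4.67, 4.31 and 4.44 without tumors, and 4.60, 4.38 and 4.41 in DMH. It was at the level of DMH without tumors (change 0.01, 95% interval -0.38 to 0.39) and lower with tumors than without by 0.64 ± 0.17 on the log2 scale (adjusted p = 0.0419, called in 2 of the same 9 fits). Within slide 1, array 1 with tumors differed by -0.81 from the mean without tumors. The other 5 subunits of complex I (Ndufs1, Ndufa1, Ndufa9, Ndufb5 and Ndufb8) were called in no comparison. With tumors their changes against DMH ran from -0.50 to -0.11, and without tumors from -0.12 to 0.32.

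Ndufa4 had the tightest values of the called members. They were 5.52, 5.50 and 5.55 with tumors, 5.40, 5.23 and 5.32 without tumors, and 5.97, 5.95 and 5.99 in DMH, with no overlap between groups. The fall was 0.65 ± 0.13 without tumors (adjusted p = 0.01) and 0.55 ± 0.15 over all 6 butyrate arrays (adjusted p = 0.0476), and the change with tumors was -0.45 ± 0.13 (adjusted p = 0.0747). On slide 2 alone, arrays 2 and 3 with tumors differed by -0.45 from the DMH mean, as did array 1 on slide 1.

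The stalk of ATP synthase held further calls. Atp5o, which joins the catalytic head to the peripheral stalk, had 4.67, 5.61 and 5.38 with tumors, 4.84, 4.93 and 5.04 without tumors, and 5.93, 5.93 and 5.94 in DMH. All butyrate arrays were below DMH, those of slide 1 by most, and the fall was 0.99 ± 0.24 without tumors (adjusted p = 0.0172) and 0.85 ± 0.22 over all 6 arrays (adjusted p = 0.0459). Atp5j, coupling factor 6 of the stalk, had 6.35, 6.54 and 6.35 with tumors, 6.36, 6.20 and 6.33 without tumors, and 7.01, 6.87 and 6.86 in DMH. Both butyrate groups lay together below DMH, with a fall of 0.61 ± 0.14 without tumors (adjusted p = 0.016) and of 0.55 ± 0.14 over all 6 arrays (adjusted p = 0.0463). Atp5c1, the central shaft, was called in no comparison (log2 change -0.31 with tumors and -0.13 without tumors against DMH).

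Members called in no comparison made up most of complexes III and IV. Uqcrc1 and Uqcrc2, the core proteins of complex III, changed by -0.15 and -0.50 with tumors and by 0.24 and -0.25 without tumors against DMH. Uqcrfs1, the Rieske iron-sulfur protein, changed by -0.42 and -0.51, and cytochrome c (Cycs), which carries electrons from complex III to complex IV, by -0.32 and -0.40, with tumors first. Of complex IV, Cox4i1, Cox5a, Cox5b, Cox6a1 and Cox7a2 had changes between -0.43 and -0.26 with tumors and between -0.32 and 0.22 without tumors against DMH. Cox4i1, Cox5a, Cox5b and Cox6a1 were higher on array 1 of each group than on the other 2. The same held for members of other complexes, among them Sdhb, Sdhc, Uqcrc1 and Ndufs7. Cox5b read 7.33, 6.66 and 6.33 with tumors, 7.57, 7.04 and 7.14 without tumors, and 7.31, 6.93 and 6.85 in DMH, so the differences within groups were as large as those between them. Over all 20 members that were not called without tumors, changes ran from -0.51 to 0.32, with a median SE of 0.17.

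Where a gene had several probes, they did not always give 1 answer. The used probe of Atp5b and 2 dimmer ones all fell without tumors (-1.79, -0.69 and -1.40 on the log2 scale, adjusted p = 0.00145, 0.0193 and 0.0166 in the fit of all probes). The rise between the butyrate groups (1.07) was not seen with the second (-0.16, adjusted p = 0.522), and the third gave 0.85 (adjusted p = 0.11). The second probe of Atp5b read 3.54, 4.02 and 3.84 with tumors, 3.85, 3.90 and 4.13 without tumors, and 4.70, 4.62 and 4.65 in DMH, with both butyrate groups together below DMH. Atp5a1, the alpha subunit of ATP synthase, had 6.0, 5.87 and 5.53 with tumors, 6.31, 6.12 and 6.32 without tumors, and 6.09, 6.07 and 6.0 in DMH with the used probe. Its second probe, nearly as bright, read 6.11, 6.01 and 5.72 with tumors, 5.66, 5.45 and 5.72 without tumors, and 6.19, 6.18 and 6.17 in DMH. The log2 change of Atp5a1 without tumors against DMH was therefore 0.19 with the first probe and -0.57 with the second (adjusted p = 0.0306), opposite in direction. Uqcrc1 was lower with tumors with its second probe (-0.67 against DMH, adjusted p = 0.0473; -0.64 against without tumors, adjusted p = 0.0358), where the used probe gave -0.15 and -0.39, neither called. Ndufa1 changed by -0.58 between the butyrate groups with its second probe (adjusted p = 0.0454) and by -0.28 with the first (adjusted p = 0.204). Cox7a2 fell by 0.52 without tumors with its second probe (adjusted p = 0.0335), and its first gave -0.32. The fall of Cycs (-0.40 without tumors) was not seen with its 2 other probes (-0.01 and 0.05). The 26 other members had 1 probe and no such check.

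**Figure D4:**
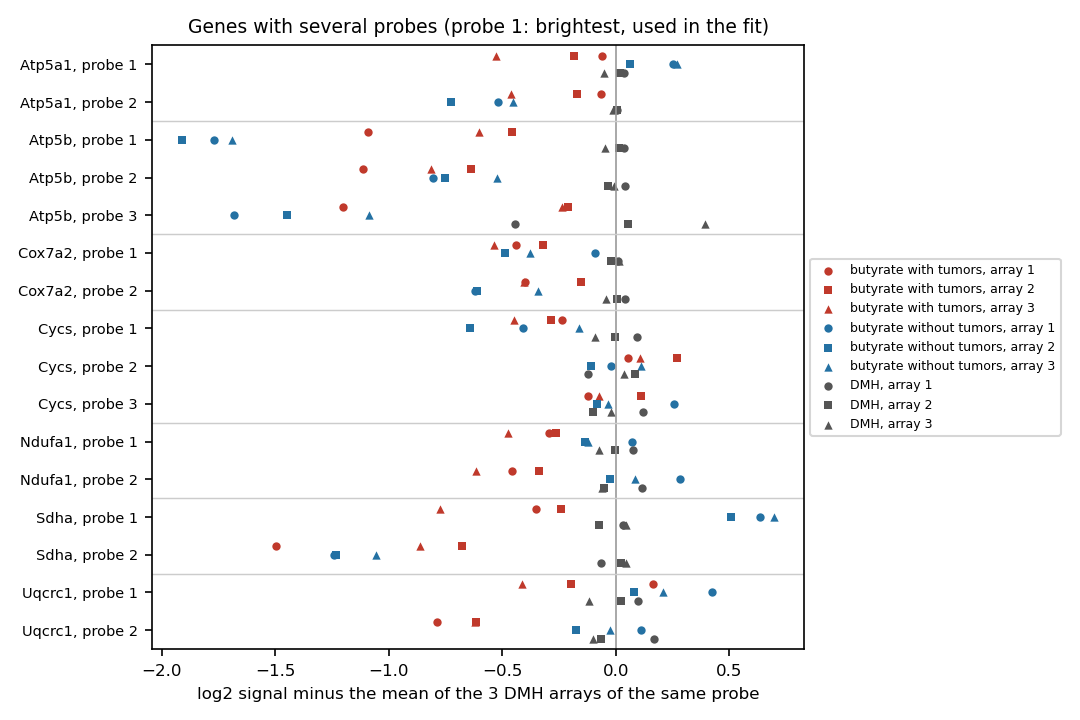
Log2 signal of each probe of the 7 members with several probes, relative to the mean of the 3 DMH arrays of the same probe; rows are probes, colours are groups and symbols are array numbers. Sdha and Atp5a1 without tumors lie right of 0 with the first probe and left of 0 with the second.

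Slide 1 held arrays of both butyrate groups, which let the difference between them be read within and between slides. Array 1 with tumors lay below all arrays without tumors on the same slide for 17 of 33 members, and above them for 5, where 32.5% of all features lay below and 34.8% above, with a median difference from their mean of -0.23 on the log2 scale. Arrays 2 and 3 with tumors, on slide 2, gave a median difference of -0.26 from the arrays without tumors. For Cox6b1, Ndufs8 and Atp5o, among others, the sign differed, with differences of array 1 with tumors from the mean without tumors of -0.32, -0.48 and -0.27 and of arrays 2 and 3 with tumors of 0.88, 0.70 and 0.55. For Sdha, Sdhb and Sdhc on one side and Atp5b, Ndufs3 and Uqcrb on the other, array 1 and arrays 2 and 3 went the same way. For Ndufs3 and Uqcrb the mean without tumors held a low array 1 (1.45 and 1.93), and that of Uqcrb rested on 2 arrays. Array 1 with tumors, at 3.08 and 4.03, lay close to the highest array without tumors, at 2.94 and 3.82. With slide 1 alone no member was called between the butyrate groups (limma, 4 with an unadjusted p under 0.05), and no other feature was called. With slide as a fixed block no member was called (5 with an unadjusted p under 0.05), where 4.55% of all features were called lower and 6.66% higher. The 5 calls between these groups also went to 16 without array 1 with tumors (9 lower and 7 higher) and to 0 without array 3 with tumors, and all features moved likewise, with 16.6% called lower and 18.8% higher without array 1 and 0.3% and 0.505% without array 3. The part of the slide in these differences was not tested further.

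**Figure D5:**
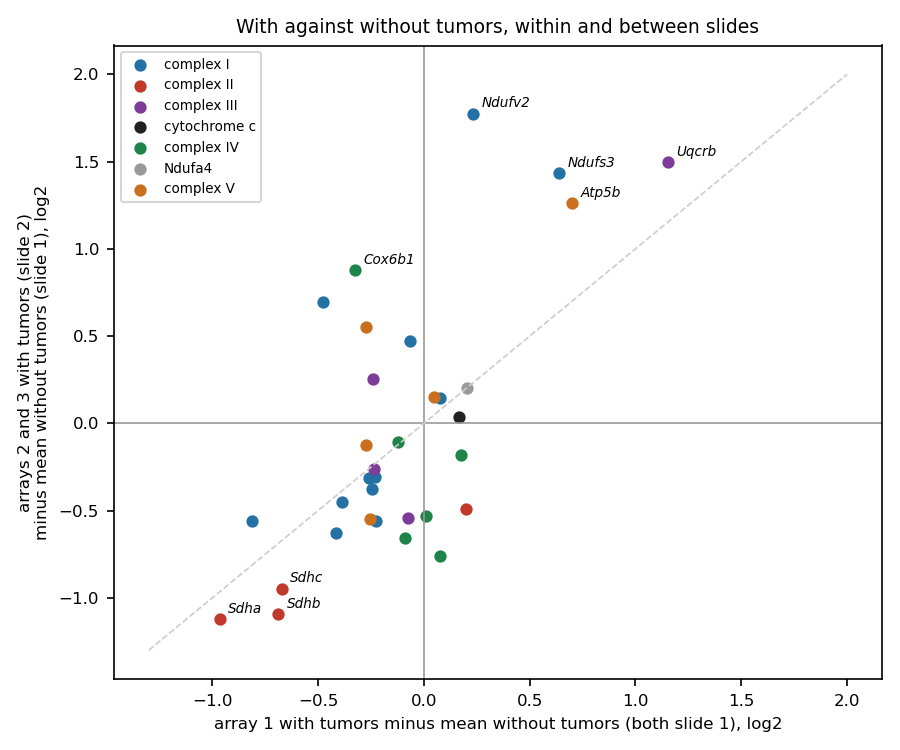
Difference from the mean of the 3 arrays without tumors, for array 1 with tumors on the same slide (x axis, log2) and for arrays 2 and 3 with tumors on slide 2 (y axis, log2); each point is 1 member, coloured by complex, and the dashed line marks equal differences. Sdha, Sdhb and Sdhc lie at the lower left, and Cox6b1 and Ndufv2 lie far above the line.

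On slide 2 the mean of arrays 2 and 3 with tumors lay below the DMH mean for 33 of 33 members, beside 43.7% of all features. Without the arrays of slide 1, 5 members were called lower with tumors against DMH (2 against 3 arrays, with 5.72% of all features called lower and 5.69% higher), namely Sdhc (-0.70, adjusted p = 0.0342), Cox6b1 (-0.83, adjusted p = 0.038), Ndufs7 (-0.74, adjusted p = 0.0421), Ndufs3 (-0.56, adjusted p = 0.044) and Atp5b (-0.53, adjusted p = 0.0459). With array 3 with tumors left out no member was called, and 10 had an unadjusted p under 0.05, where 0.241% of all features were called.

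Of the other respiratory chain genes, 45 further subunits of complexes I, III, IV and V were listed and all passed the filter. Against DMH, 9 were called lower with tumors and 14 without tumors (2.26% and 13.8% of all features), and none was called higher in either (3.44% and 16.6%). The medians were -0.37 and -0.22. Cox7b and Cox6c, small subunits of complex IV, fell by 1.61 ± 0.27 and 1.52 ± 0.19 without tumors (adjusted p = 0.0052 and 0.002), and Cox7b also fell by 1.12 ± 0.27 with tumors (adjusted p = 0.0489). Cox7a2l, which helps to join complexes into supercomplexes, fell by 1.48 ± 0.26 without tumors (adjusted p = 0.006). Uqcrq of complex III fell in both groups, by 0.80 ± 0.19 with tumors and 1.15 ± 0.19 without tumors, and so did Ndufv3 of complex I, by 0.80 ± 0.19 and 1.14 ± 0.19. Cyc1, the cytochrome of complex III, and Atp5d and Atp5g1 of ATP synthase were called lower with tumors (-0.81, -0.72 and -0.70). Between the butyrate groups 3 of the 45 were called lower with tumors (Ndufa11, Atp5d and Atp5g1) and 1 higher, Cox6c (1.02 ± 0.19, adjusted p = 0.0191). In that comparison 6.55% of all features were called lower and 6.98% higher, so the lower calls were near the share of all features. Of 9 isoform genes known from muscle, testis or lung, 5 passed the filter. Cox7a1, the heart and muscle form of subunit 7a, was named after its values were seen. It rose by 0.76 ± 0.22 without tumors (adjusted p = 0.0322) and was 1.16 ± 0.22 lower with tumors than without (adjusted p = 0.0195). The 13 subunits encoded by mitochondrial DNA were not analysed here.

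Genes that build or regulate the chain were set beside the subunits. Of 44 assembly factors 42 passed the filter, and without tumors 7 were called lower and 5 higher against DMH, shares near those of all features (13.8% and 16.6%). Cox20, a chaperone of a core complex IV subunit, fell by 1.70 ± 0.22 (adjusted p = 0.0021) and Cox17, a copper chaperone of complex IV, by 1.27 ± 0.24 (adjusted p = 0.008). Cox10, which makes a haem precursor for complex IV, fell by 2.46 ± 0.60 (adjusted p = 0.0184) and Taco1, which promotes translation of a complex IV subunit, by 0.84 ± 0.20 (adjusted p = 0.0182), while Ttc19, a complex III factor, rose by 1.08 ± 0.21 (adjusted p = 0.0082). With tumors 2 assembly factors were called lower and none higher (2.26% and 3.44% of all features). Timmdc1, a complex I factor, fell by 1.67 ± 0.19 (adjusted p = 0.016) and Lrpprc, which stabilises mitochondrial messenger RNA, by 0.67 ± 0.15 (adjusted p = 0.0437), all against DMH. Of 13 regulators of mitochondrial biogenesis, all measured, 4 were called higher and 1 lower without tumors (16.6% and 13.8% of all features), and none was called with tumors (3 with an unadjusted p under 0.05). Ppargc1a, a coactivator of respiratory chain genes, rose by 1.64 ± 0.20 without tumors (adjusted p = 0.00196) and was 1.24 ± 0.20 lower with tumors than without (adjusted p = 0.0147). Gabpa, the DNA-binding subunit of the ETS-type factor, rose by 1.08 ± 0.19 without tumors (adjusted p = 0.0063), Esrra, a nuclear receptor, by 0.60 ± 0.16 and Polrmt, the mitochondrial RNA polymerase, by 0.67 ± 0.22, and Tfb1m, which methylates mitochondrial ribosomal RNA, fell by 1.60 ± 0.38 (adjusted p = 0.0177).

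Citrate cycle genes outside complex II were set beside the members of complex II. Of 14, 13 passed the filter, and 4 were called lower with tumors than without and none higher (6.55% and 6.98% of all features), with a median of -0.46. Without tumors against DMH, 1 was called higher and none lower (16.6% and 13.8%). A list of 15 other proteins of the mitochondrial membranes had medians of -0.29 with tumors and -0.27 without tumors against DMH, below 0 like those of the members. Of the 15, 2 were called lower and none higher with tumors (2.26% and 3.44% of all features). Without tumors 5 were called lower and 1 higher (13.8% and 16.6%). Cytosolic ribosomal protein genes gave a list of another pathway. Of 36 measured, 26 were called lower without tumors against DMH (13.8% of all features, list median -1.29), and 21 were called higher with tumors than without (6.98% of all features, list median 0.82), where the median of the 33 members was -0.25.

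Markers of other cells moved in the same arrays, and their part in the values of the respiratory chain genes was not tested. The counts against DMH are to be read beside 2.26% of all features called lower and 3.44% higher with tumors, and 13.8% and 16.6% without tumors. Of 10 epithelial markers, 3 were called lower with tumors and 6 lower and 1 higher without tumors against DMH, and their summed signal, in multiples of the 75th percentile, was 666 to 952 with tumors, 716 to 891 without tumors and 1370 to 1590 in DMH. Of 8 goblet cell markers, 6 and 4 were called lower, with sums of 206 to 801 with tumors, 496 to 652 without tumors and 1370 to 1510 in DMH. Of 9 smooth muscle markers none was called with tumors (7 with an unadjusted p under 0.05) and 5 were called higher without tumors, and the sums were 442 to 885 with tumors, 389 to 850 without tumors and 225 to 385 in DMH. Enteric neuron and glia markers summed to 3.26 to 9.37 with tumors, 5.55 to 9.40 without tumors and 2.68 to 3.24 in DMH, with 5 of 10 called higher without tumors, and 8 of 10 were well above background on all 9 arrays. Neutrophil markers summed to 0.441 to 5.67 with tumors, 0.0905 to 0.297 without tumors and 3.55 to 3.84 in DMH. Only 2 of these 4 markers were well above background on all 9 arrays, so the list passed the filter in part through the arrays where it was high. Without tumors, 0 of 3 arrays measured S100a8 or Ltf well above background, and the sums there are in part a bound. Lists of fibroblast (6 markers), lymphocyte (7), macrophage (4), endothelial (4) and fat cell (4) genes had at most 2 members called in any of these comparisons. Call counts do not show how far a single array stood apart. Lymphocyte markers summed to 8.10 to 61.8 with tumors, 5.90 to 9.02 without tumors and 6.32 to 7.26 in DMH. Their median relative to the DMH mean was 3.02, 0.15 and 0.96 (log2) on arrays 1, 2 and 3 with tumors. For goblet cell markers it was -2.65, -0.85 and -2.18. Array 1 was also the only array with tumors on slide 1.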

How the data were processed

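Total RNA of 9 samples was measured with 1 dye on Agilent mouse arrays. Per the file headers, the values used are spot intensity that Feature Extraction 10.5.1.1 had corrected for background and for spatial trend, unscaled between arrays. The value table that the authors deposited holds log2 intensity of 21829 probes minus 1 constant per array (SD of the difference from the scanner files at most 0.00807), covers 32 of the 33 members, has column medians of 2.71 to 3.20 and served as an alternative; which quantity the constant is stays unknown.

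Spots marked as outliers were left out, spots of a probe were averaged, and values were log2 intensity minus the array's 75th percentile over all spots but controls. Probes well above background on at least 3 arrays and with at least 2 values per group were kept (28521), and the brightest probe of each gene was used (21968 features). RefSeq accessions named the probes. Annotation differed in the DMH files (4725 probes with another accession, none a probe of a member), so 1 version served all arrays. limma 3.58.1 in R 4.3.3 (lmFit and eBayes, 2-sided, Benjamini-Hochberg over all features, called under 0.05) compared 6 butyrate arrays with 3 DMH arrays in a fit of 2 groups, and the 3 groups in another. Second probes were tested in a fit of all probes kept. The fit was tested on simulated data.

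Alternatives were other scalings, background corrections, filters, priors, ways to join probes, blocks (statmod 1.5.0), groups in the fit and arrays left out. All 33 members may be named; of further subunits, assembly factors and regulators, up to 5 per list and comparison with the smallest p. The members and lists were chosen with earlier results of these data known. Promoters were matched by symbol. Summaries and plots were made with pandas 2.3.3 and numpy 2.4.6 in Python 3.11.15 and with matplotlib 3.10.9. The number of arrays limits the precision.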

Additional observations from a re-analysis of the deposited data

Results flagged for a closer look

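Uqcrb, the ubiquinol-binding subunit of complex III, was at 1.93 on array 1 without tumors, while the other 4 butyrate arrays with a value lay between 3.82 and 4.50. The gap to its nearest neighbour was 0.736 of the whole range, above the critical value of 0.71 for 5 values in Dixon's outlier test. The 6 butyrate arrays were tested for 33 members and 1 was flagged, no more than the rate of about 1 in 20 at which chance flags values of 1 population. These arrays come from both butyrate groups (Uqcrb means 2.88 without tumors and 4.26 with tumors), so that rate need not hold here. The cause was not tested.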

How the results depend on the processing

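The 4 comparisons (all butyrate, without tumors and with tumors against DMH, and with tumors against without) had 5, 13, 1 and 5 members called and median log2 changes of -0.31, -0.25, -0.43 and -0.25. In each statement here the cause was not tested, except that fewer arrays or other features tested are part of an alternative's construction.

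With quantile scaling, 1 member was called for all butyrate and 0 with tumors against DMH (7 at an unadjusted p under 0.05), beside 8.22% and 4.23% of all features. The medians were -0.147 for all butyrate, 0.00152 without tumors and -0.218 with tumors. With no scaling, 0, 5, 0 and 0 members were called in the order of comparisons above (16, 1 and 3 at an unadjusted p under 0.05 where 0), and the medians were -1.16, -1.33, -1.04 and 0.216, where the median of all features moved to -0.763, -1.0, -0.526 and 0.481. Of all features 0.159%, 7.06%, 0.159% and 0.00455% were called with no scaling. Normexp with quantile scaling called 1 for all butyrate and 11 between the butyrate groups (8.08% and 12.4% of all features), with medians of -0.0836 without tumors and -0.253 with tumors. The authors' values called 10 for tumors against DMH and 11 between both butyrate groups (11.5% and 25.6% of all features). The medians were -0.0733, -0.614 and -0.548 without tumors, with tumors and between, where all features had 0.254, -0.110 and -0.359.

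Calls for all butyrate against DMH were 0 with no filter on dim probes, with the DMH arrays 2 and 3 averaged and with slide as a block (12, 10 and 11 at an unadjusted p under 0.05). They were 10 in the fit of 3 groups, where the means of both butyrate groups were averaged. Of all features 1.57%, 0.0182%, 0.0774% and 23.0% were called in these 4 settings. Member calls without tumors against DMH were 8, 6 and 1 in the first 3 of these settings (15.1%, 13.2% and 4.58% of all features). With tumors against DMH they were 0 in the same 3 settings (13, 11 and 10 unadjusted), where 0.583%, 0.0182% and 0.0182% of all features were called. They were also 0 with only these 2 groups in the fit (15 unadjusted, 1.62% of all features called). Member calls in that comparison were 5 with probes well above background on all arrays, 2 with the mean of probes, 7 with a trend and robust prior and 5 without slide 1. Of all features 9.53%, 5.28%, 6.56% and 11.4% were called in these fits. Between the butyrate groups they were 3 with the mean of probes (12.7% of all features called). They were 0 with slide as a block or with the DMH arrays left out of the fit (5 and 7 unadjusted). Of all features 11.2% were called with slide as a block and none without the DMH arrays. With slide 1 alone the median log2 change of members was -0.229.

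Leaving out each array gave 0 to 9, 5 to 14, 0 to 3 and 0 to 16 calls in the order above, and medians of -0.372 to -0.249, -0.343 to -0.139, -0.525 to -0.379 and -0.284 to -0.123. Of all features 0.0319% to 16.5%, 12.9% to 45.3%, 0.0182% to 8.17% and 0.806% to 35.4% were called in these fits.

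Same-numbered arrays did not pair consistently. Their correlations ran from -0.01 to 0.264, those of arrays with different numbers from -0.241 to 0.227, and not every array correlated best with its own number. With the replicate block, 0 members were called for all butyrate and 0 with tumors against DMH (12 and 16 unadjusted), and 12 without tumors and 5 between the butyrate groups. Of all features 2.65%, 2.17%, 31.3% and 12.8% were called, in the same order.

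Where a value was called in either fit, the sign turned without tumors against DMH for Cox6a1 (0.611 with quantile scaling, 0.443 with normexp), Sdha (-0.467 with no scaling, -0.282 with the mean of probes), Sdhb (-0.408 with no scaling), Atp5a1 (-0.401 with normexp) and Atp5c1 (0.336 with normexp), and between the butyrate groups for Atp5a1 (0.344 with normexp). Of all single-gene values under an alternative, 2705 kept their side of the threshold, 197 lost a call and 89 gained one. The first count includes values called in neither fit, so it does not measure how stable the calls were. The fall of Atp5b without tumors was called in 22 of 22 alternatives, and those of Cox6b1, Ndufs3 and Ndufv2 in 21 of 22. The calls of Ndufs8 and Sdha without tumors were made in 10 of 22, and that of Ndufs7 with tumors against DMH in 9 of 23. Signal on slide 1, the dimmest, and 3 arrays a group limit the precision.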
